A study of Mus musculus with 3 samples.

Results

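The forkhead family is the set of transcription factors named Fox, and it was taken here as every gene of the count table whose mouse symbol is Fox followed by a subclass letter and a number. This gave 44 genes of 27179 in the table, in 19 subclasses. RNA was sequenced from 3 libraries, all of 1 group: adipose stem and progenitor cells of epididymal fat, taken at 12 weeks of age from male C57B6 mice that were wild type and naive. The fat was digested with collagenase II, and the sorted cells were alive, carried CD140a, Sca1 and podoplanin, and lacked CD45, CD31 and Ter119. The labels mention 3 mice without tying a library to a mouse, and the p-values below measure the spread between these libraries, which may be technical. No treatment, genotype or second cell type was compared, and the comparisons are therefore between genes within a library and between the 3 libraries.

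Forkhead proteins share a winged-helix domain whose recognition helix lies in the major groove of DNA. Insulin and growth factors, acting through the kinase AKT, phosphorylate the FOXO subclass, which 14-3-3 proteins then hold outside the nucleus, and FOXO1 is known as a brake on the early steps of fat cell formation. FOXC and FOXF factors pattern embryonic mesenchyme, FOXP and FOXK factors mostly repress transcription, FOXM1 drives mitotic genes, and many of the other subclasses mark organs such as liver, thyroid, ovary or thymus.

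The codons of the recognition helix are given for the FOXF and FOXC pairs, because in each pair 1 paralog was detected and the other was not. Each line holds the 30 bases that match the conserved helix, from GENCODE M21 transcripts (GRCm38), with capitals for bases that differ from the paralog's.
Foxf1 (chr8:121084672-121084701, plus strand): tggaagaactccgtgcgccacaacctGtcg
Foxf2 (chr13:31626509-31626538, plus strand): tggaagaactccgtgcgccacaacctCtcg
Foxc1 (chr13:31807571-31807600, plus strand): tggcagaacagcatAcgGcacaacctCtcG
Foxc2 (chr8:121116957-121116986, plus strand): tggcagaacagcatCcgCcacaacctGtcA
Foxf1 and Foxf2 were alike at 29 of 30 bases, and Foxc1 and Foxc2 at 26. In all 4 genes these codons lie within the first exon.

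Sequence shared between transcripts bears on how reads are assigned. Every stretch of 50 bases in the annotated transcripts was compared, on both strands, with the transcripts of all other genes. Foxo3 shared 0 of 7568 stretches and Foxs1 0 of 1262. Foxc1 and Foxc2 shared 4 with each other. Among detected forkhead genes the highest share was 6.80%, in Foxo1, which shared most with Gm20402. Of the other members, Foxq1 shared 65.7%, most with A530084C06Rik, and Foxp3 23.1%, most with Flicr, so their low counts are uncertain to that extent.

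The libraries held 32813373, 25060096 and 27275888 counts. A count of 0 is taken to allow up to 3 counts, which corresponded to 0.0945, 0.119 and 0.107 CPM (normalised counts scaled to a fixed library size, with TMM factors), and this limit covers counting error only. The 8 genes checked as progenitor markers all reached at least 1 CPM in each library and include Pdgfra, Ly6a and Pdpn, which encode the sorted antigens. Summed over their lists, epithelial markers (0 of 8 detected) ranged from 0.143 to 0.991 CPM, mature adipocyte markers (0 of 8, Adipoq at 0) from 2.11 to 10.3, leukocyte markers (1 of 11) from 6.30 to 18.2 and mesothelial markers (1 of 9) from 10.2 to 23.8. The leukocyte marker detected was Ptprc, the gene of CD45, an antigen the sort excluded, at 5.42, 15.8 and 7.68 CPM. The source of these reads was not tested. Endothelial markers (2 of 12) ranged from 289 to 403 CPM, mostly through Tek at 322 ± 64.9 CPM (mean ± SD, n = 3). Pecam1, the gene of CD31, had 1, 1 and 2 counts. In pooled sorted cells, fewer cells of a type and less RNA per cell cannot be told apart. Between libraries the counts scattered widely: the common biological coefficient of variation estimated by edgeR was 0.979 over 13289 genes.

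Of the 44 forkhead genes, 13 (29.5%) were detected, which here means a level of at least 1 CPM in all 3 libraries, against 35.0% of all genes in the table and 43.7% of protein-coding genes. That share was below both backgrounds and was not tested. The detected genes were Foxo1, Foxo4, Foxp1, Foxp2, Foxp4, Foxn2, Foxn3, Foxj2, Foxj3, Foxk1, Foxk2, Foxc1 and Foxf2. They fall in 7 of the 19 subclasses, and 12 subclasses had no detected member. Of the 31 others, 8 had over 3 counts in all, 15 had 1 to 3 counts, and 8 (18.2% of the family) had 0 counts in every library, beside 26.4% of all genes and 19.0% of protein-coding genes. The median forkhead gene stood at 0.0329 CPM, beside 1.90 CPM for the median protein-coding gene. Just inside the threshold were Foxo4, lowest at 1.04 CPM in library 1, and Foxp4, lowest at 1.94 CPM in library 2. Foxs1 and Foxo3 reached 1 CPM in library 1 alone, at 8.06 and 1.04 CPM. Members below 1 CPM in every library were led, by the mean, by Foxl2 and Foxm1. Foxl2, the ovarian granulosa cell factor, stood at 0.315, 0.753 and 0.179 CPM, and Foxm1 was lowest at 0.238 CPM.

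**Figure D1:**
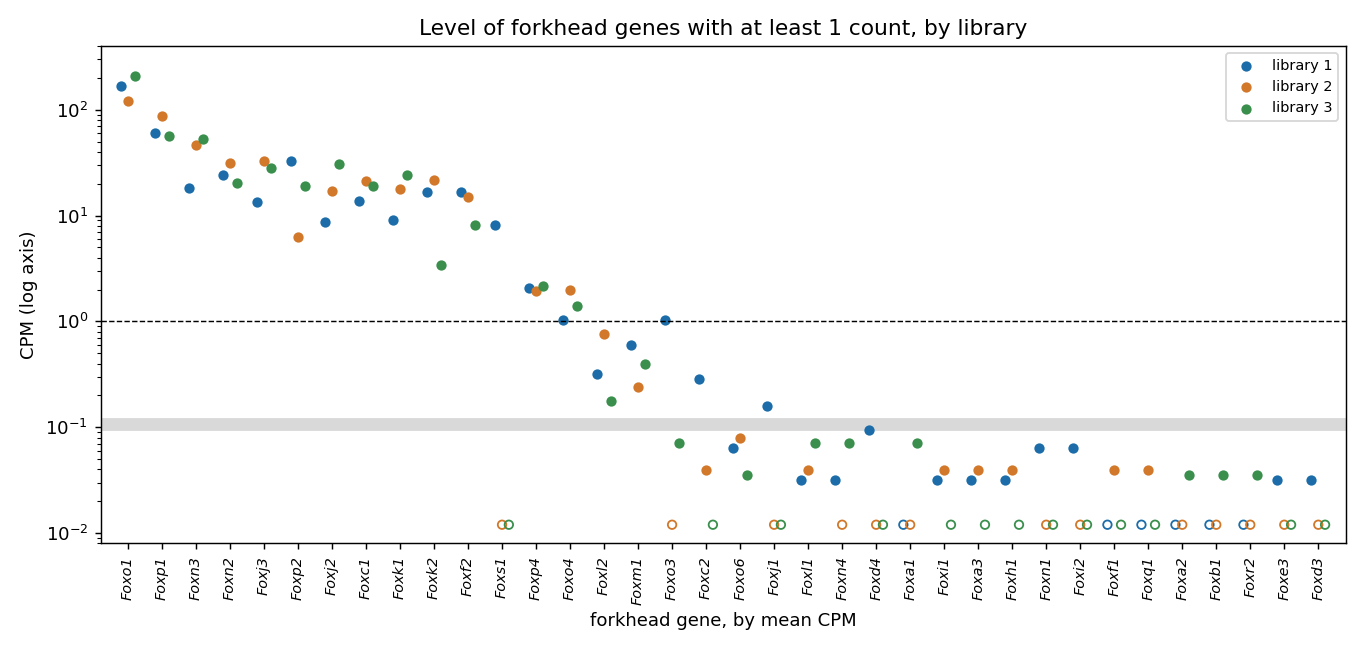
Level in CPM of the 36 forkhead genes with at least 1 count, on a log axis, one point per library; open circles at the bottom mark 0 counts, the dashed line 1 CPM and the grey band the level of 3 counts (0.0945 to 0.119 CPM). The 13 detected genes lie above the dashed line in every library, Foxs1 and Foxo3 reach it in library 1 alone, and most other genes lie within or below the grey band.

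Other factor families were counted under the same rule, beside 35.0% of all genes and 43.7% of protein-coding genes. Krüppel-like factors, zinc finger proteins with several roles in fat cell formation, had 11 of 17 detected (64.7%) and a median of 15.1 CPM. HOX genes, which set position along the body axis, had 15 of 39 (38.5%, between both backgrounds), with a median of 2.07 CPM. SOX genes had 5 of 19 (26.3%), with a median of 0.0644 CPM. By these counts the forkhead family lay nearer to the SOX genes than to the Krüppel-like factors, a description without a test.

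Detected forkhead genes had longer loci with more exons. The median locus spanned 57500 bases among the 13 detected genes and 3769 among the 31 others, and the transcript with most exons had a median of 9 and 2 exons. Foxc1 was the 1 detected gene annotated with a single exon, beside 12 such genes among those not detected. The intron inside the helix codons followed the same line. It was found at the same place, after 6 bases, in 14 of the 40 genes in which the helix could be matched, namely the FOXJ, FOXK, FOXM, FOXO and FOXP subclasses. Of these 14 genes 9 were detected, and of the 26 with an unsplit helix 4 were: Foxn2, Foxn3, Foxf2 and Foxc1. The threshold of 1 CPM takes no account of transcript length. At 1 CPM per kilobase in every library Foxk2, Foxo4, Foxp2 and Foxp4 were lost, all of them genes with a split helix. The difference between genes with a split and an unsplit helix was smaller by that measure. Locus lengths and exon numbers were not set beside those of the whole table. These genes are related by descent and share structure through it, so they are not independent points.

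Foxo1 dominated the FOXO subclass, whose 4 members carry out insulin-sensitive control of metabolism, stress resistance and survival. Its level (gene 56458, chromosome 3, 52268337 to 52350109, GRCm38) was 169, 121 and 208 CPM, higher than that of 95.3% of protein-coding genes by the mean. Foxo3, which in most tissues acts beside Foxo1 (chromosome 10, 42181845 to 42276695), had 33, 0 and 2 counts, or 1.04, 0 and 0.0714 CPM. Foxo4 (chromosome X, 101254261 to 101260873) stood at 1.04, 1.98 and 1.39 CPM. Foxo1 thus lay above the other members in each library. Foxo6, a member known mainly from brain, had 5 counts in all. Foxo3 counts came almost wholly from library 1, with 0 in library 2.

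Levels were also set per kilobase of all annotated exons of a gene, which reduces but does not remove the effect of transcript length. Foxo1 reached 19.5, 14.0 and 24.0 CPM per kilobase and Foxo3 0.137, 0 and 0.00943. The difference in log2(CPM per kilobase + 0.5) was 5.14 ± 0.39 (SD, n = 3) in favour of Foxo1, with the same sign in 3 of 3 libraries. For Foxo1 over Foxo4 it was 4.39 ± 0.55, again in 3 of 3. Because 3 libraries allow no p below 0.25 in an exact two-sided sign-flip permutation test, neither these nor the other pairs could pass 0.05, and both gave p = 0.25, as the exact test allows. Over the summed counts, Foxo1 exceeded Foxo3 by a ratio per kilobase of 356 (256 to 511 by a 95% exact interval for counting error alone). This ratio rests on library 1, which held 33 of the 35 Foxo3 counts: it was 142 (101 to 207) within library 1, and 3882 (1074 to 32060) without it, from 2 Foxo3 counts. Of the summed CPM per kilobase of all 44 forkhead genes, Foxo1 made up 35.5%, 26.4% and 42.4%.

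The promoters of this pair are shown because Foxo1 led the family and Foxo3 fell outside the detected genes, although both promoters are rich in G and C. Each runs from 250 bases before to 50 bases after the start of the gene (RefSeq, GRCm38.p6), and capitals mark the GC box GGGCGG and the CCAAT box on either strand, which can overlap.
Foxo1 (chr3:52268087-52268386, plus strand): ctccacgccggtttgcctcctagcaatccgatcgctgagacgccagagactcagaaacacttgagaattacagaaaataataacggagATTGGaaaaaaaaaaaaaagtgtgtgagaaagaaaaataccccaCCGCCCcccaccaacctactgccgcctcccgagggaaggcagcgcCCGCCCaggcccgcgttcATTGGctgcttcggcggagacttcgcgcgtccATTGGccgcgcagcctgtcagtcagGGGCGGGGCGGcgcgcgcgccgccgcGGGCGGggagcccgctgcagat
Foxo3 (chr10:42276646-42276945, minus strand): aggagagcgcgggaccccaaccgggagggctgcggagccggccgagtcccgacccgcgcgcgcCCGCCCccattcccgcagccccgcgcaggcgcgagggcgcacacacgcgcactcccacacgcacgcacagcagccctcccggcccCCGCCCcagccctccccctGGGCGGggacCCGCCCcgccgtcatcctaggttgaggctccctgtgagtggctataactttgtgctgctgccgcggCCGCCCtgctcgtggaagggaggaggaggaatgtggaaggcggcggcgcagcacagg
Both promoters held 5 GC boxes. The Foxo1 promoter held 3 CCAAT boxes and the Foxo3 promoter none. G and C made up 61.3% and 75.0% of their bases, beside a median of 52.7% over all promoters. The forkhead core GTAAACA, searched on both strands, was in neither window. Promoters were available for 28 of the 44 genes, some with several starts. In these 33 windows GC boxes occurred in 72.7%, CCAAT boxes in 45.5% and GTAAACA in 3.03%, beside 35.7%, 37.4% and 3.65% of all 32851 promoters.

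Genes that act on FOXO proteins were detected in 31 of 34 cases (91.2%, beside 43.7% of protein-coding genes), with a median of 54.2 CPM beside 1.90 CPM for protein-coding genes. The 14-3-3 genes Ywhae and Ywhab stood at 431 ± 78.8 and 342 ± 70.0 CPM, and Ywhaq at 246 ± 31.4. Sgk1, a kinase that phosphorylates FOXO proteins as AKT does, reached 429 ± 72.7 CPM. Listed genes that were not detected were Skp2 (100, 512 and 5 counts), the phosphoinositide 3-kinase subunit gene Pik3cb (25, 0 and 39) and the epithelial 14-3-3 gene Sfn (10, 0 and 34). The 3 AKT genes were all detected.

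Of 32 genes known as FOXO targets in other tissues, 20 were detected (62.5%, beside 43.7% of protein-coding genes), with a median of 14.2 CPM beside 1.90 CPM for protein-coding genes. Klf2, a factor that restrains fat cell formation, stood at 1173 ± 181 CPM and the thioredoxin inhibitor gene Txnip at 691 ± 103. Ccng2, a cyclin of resting cells, reached 249 ± 56.3 CPM and the autophagy gene Map1lc3b 212 ± 47.0. The 4 members at 0 counts in every library were Fasl, Igfbp1, G6pc and S1pr1, of which Igfbp1 and G6pc are liver genes. No FOXO activity was measured, and these targets also answer to other factors.

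Promoters of these targets held the core GTAAACA in 5 of 34 windows (14.7%, beside 3.65% of all promoters). Promoters of the FOXP partners held it in 3 of 16 windows (18.8%) and those of the genes acting on FOXO proteins in 4.88%. The stretch around it is given for the 2 detected genes among them, with the core in capitals.
Txnip (chr3:96557826-96557852, plus strand): tggaggcctgGTAAACAagggccaagt
Sesn1 (chr10:41810586-41810612, plus strand): aaccttctacTGTTTACcagccttttg
Sesn1, a stress-induced regulator of nutrient signalling, stood at 60.5 ± 8.21 CPM. The other genes with the core were Bcl2l11, Bbc3 and Trim63, none of them detected in every library. A match is a string of letters in this window and was not measured as a bound site.

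Foxp1 was the leading member of the FOXP subclass, repressors that bind DNA as dimers. Foxp1 (chromosome 6, 98925342 to 99522746) stood at 59.7, 86.6 and 56.4 CPM. Foxp2, best known for its part in vocal learning circuits (chromosome 6, 14901349 to 15441977), stood at 32.8, 6.22 and 19.2 CPM, highest in library 1 and lowest in library 2. Foxp4 (chromosome 17, 47867133 to 47924632) had nearly the same level in all libraries, 2.05, 1.94 and 2.18 CPM. Foxp3, the factor that defines regulatory T cells, had 0 counts in every library, which allows up to 3 counts per library.

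Per kilobase of exon, Foxp1 exceeded Foxp2 by 1.79 ± 1.04 and Foxp4 by 2.54 ± 0.34 on the log2 scale, with no change of sign over the 3 libraries (p = 0.25 for both by the exact sign-flip permutation). The Foxp1 and Foxp2 ranges did not overlap, at 4.10 to 6.30 against 0.381 to 2.01 CPM per kilobase. Of 13 corepressors and partners of FOXP proteins 12 were detected (92.3%, beside 43.7% of protein-coding genes). The highest were the corepressor gene Ncor1 at 139 ± 34.0 CPM, the corepressor gene Ctbp1 at 125 ± 39.7 and the deacetylase gene Hdac2 at 123 ± 47.5. The gene not detected was Mta1, with 1 count. T-cell markers, relevant to Foxp3, were detected in 2 of 10 cases (20.0%), Ikzf2 and Il2ra, and the list summed to 13.1 to 29.5 CPM. Lck and Ctla4 had 0 counts, and Cd3d had 183, 0 and 205.

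Of the mesenchymal patterning factors, which sit in paired clusters on chromosomes 8 and 13, Foxf2 and Foxc1 were detected and their counterparts on chromosome 8 were not. Foxf2, a target of hedgehog signalling in gut mesenchyme (chromosome 13, 31625816 to 31631406), stood at 16.6, 14.9 and 8.21 CPM. Foxf1, its closest relative, had 1 count, in library 2. Foxc1, needed for the eye, skull and vessels (chromosome 13, 31806646 to 31810635), reached 13.6, 21.2 and 19.2 CPM. Foxc2, needed for lymphatic valves, had 9, 1 and 0 counts. Both detected genes lay above their paralogs in every library.

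Foxf2 exceeded Foxf1 per kilobase by a ratio of 1158 over the summed counts (207 to 45776 by the same kind of interval). It rests on 1 Foxf1 count, and the ratio was 620 (111 to 24543) without library 1. Libraries 1 and 3 held 0 Foxf1 counts. Over them Foxf2 was at least 258-fold higher, taking 3 counts over both libraries as the limit. In log2(CPM per kilobase + 0.5), Foxf1 minus Foxf2 was -3.54 ± 0.49, and Foxc1 minus Foxc2 was 2.72 ± 0.43, with no change of sign over the 3 libraries (p = 0.25 for both by the exact sign-flip permutation). The pseudocount compresses both differences, since Foxf1 and Foxc2 lie near 0. Foxc2 stayed below 0.3 CPM in each library. Of the 12 endothelial markers, which include lymphatic ones, Tek and Flt1 were detected, Flt4 had 3, 84 and 2 counts, and Prox1 and Esam were at 0.

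The order of genes along both clusters was followed in the RefSeq annotation. On chromosome 13, where Foxq1, Foxf2 and Foxc1 span 252 kb, Foxq1 had 1 count, and Gmds beyond Foxc1 stood at 7.29 ± 4.11 CPM. On chromosome 8, where Foxf1, Foxc2 and Foxl1 span 46.3 kb, all 3 were under 0.3 CPM in every library. The noncoding gene Fendrr, next to Foxf1, had 69, 79 and 0 counts, so it had reads in libraries 1 and 2 in which Foxf1 had 0 and 1. Mthfsd, an enzyme gene between Foxf1 and Foxc2, was at 1.91 ± 0.64 CPM.

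**Figure D2:**
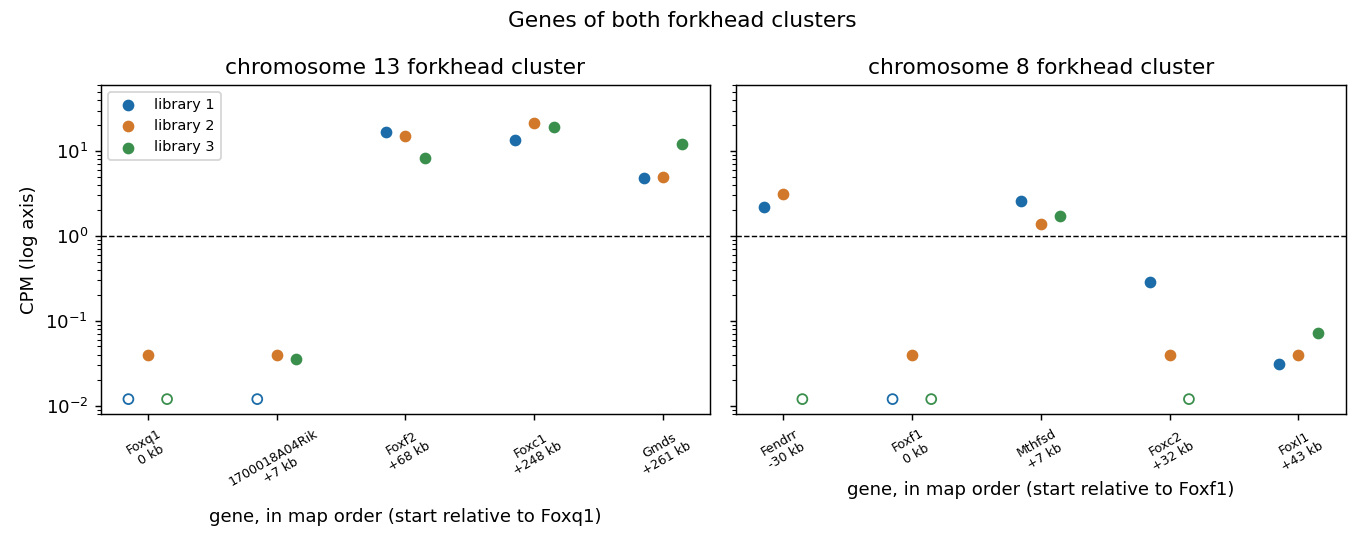
Levels in CPM (log axis) of the annotated genes in both forkhead clusters, in map order, with the start of each gene relative to Foxq1 or Foxf1 in kilobases; points are libraries, open circles mark 0 counts and the dashed line 1 CPM. Foxf2 and Foxc1 lie above 8 CPM in all 3 libraries, while Foxf1, Foxc2, Foxl1 and Foxq1 lie below 0.3 CPM.

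Hedgehog signalling, which induces FOXF genes and Foxl1 in gut mesenchyme, had 4 detected genes of 11 (36.4%, beside 35.0% of all genes and 43.7% of protein-coding genes). These were Gli3 at 119 ± 32.1 CPM, the transducer Smo at 33.1 ± 8.58, Gli2 at 19.4 ± 4.60 and the ligand-binding gene Hhip at 15.3 ± 5.82. Gli1 and Ptch1, which were not detected, had 7, 0 and 56 and 19, 50 and 0 counts. Activity of the pathway was not tested. Dhh and Sufu had 0 counts, and Shh and Ihh 1 each. At this depth ligand transcripts were therefore at or below the limit of 3 counts.

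The remaining 6 detected genes were members of the FOXK, FOXN and FOXJ subclasses. Foxk1 and Foxk2, which recruit the SIN3 repressor and regulate autophagy and glycolysis (chromosome 5, 142401497 to 142462015, and chromosome 11, 121259987 to 121309900), stood at 8.98, 17.8 and 24.0 and at 16.8, 21.8 and 3.43 CPM. Foxk1 was highest and Foxk2 lowest in library 3, so their order turned between libraries. Per kilobase their difference was -0.06 ± 1.51 on the log2 scale (negative in 2 libraries, p = 1.0 by the exact sign-flip permutation). The list of SIN3 and BAP1 complex genes had 9 of 10 detected, beside 43.7% of protein-coding genes. It was led by Ogt at 166 ± 11.0 CPM, Kdm1b at 62.0 ± 17.1, Hcfc1 at 46.9 ± 4.84 and Sin3b at 45.6 ± 10.4. The gene not detected was Asxl3 (55, 1 and 7 counts).

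Foxn3, a repressor linked to the DNA damage checkpoint (chromosome 12, 99190081 to 99563667), stood at 18.2, 46.6 and 52.4 CPM, and Foxn2 (chromosome 17, 88440704 to 88490533) at 24.2, 31.0 and 20.2. Foxn2 minus Foxn3 was 0.09 ± 0.75 per kilobase on the log2 scale (positive in 2 libraries, p = 0.75 by the exact sign-flip permutation). Foxj2 (chromosome 6, 122820184 to 122845366) stood at 8.73, 17.2 and 30.9 CPM and Foxj3 (chromosome 4, 119539661 to 119629119) at 13.4, 32.5 and 28.1. Foxj2 minus Foxj3 was 0.48 ± 0.49 per kilobase, positive in every library (p = 0.25 by the exact sign-flip permutation), but their ranges overlapped, and the mean difference turned to -0.53 with the length of the longest transcript. These 3 pairs of paralogs thus gave no order that held across libraries and length measures.

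**Figure D3:**
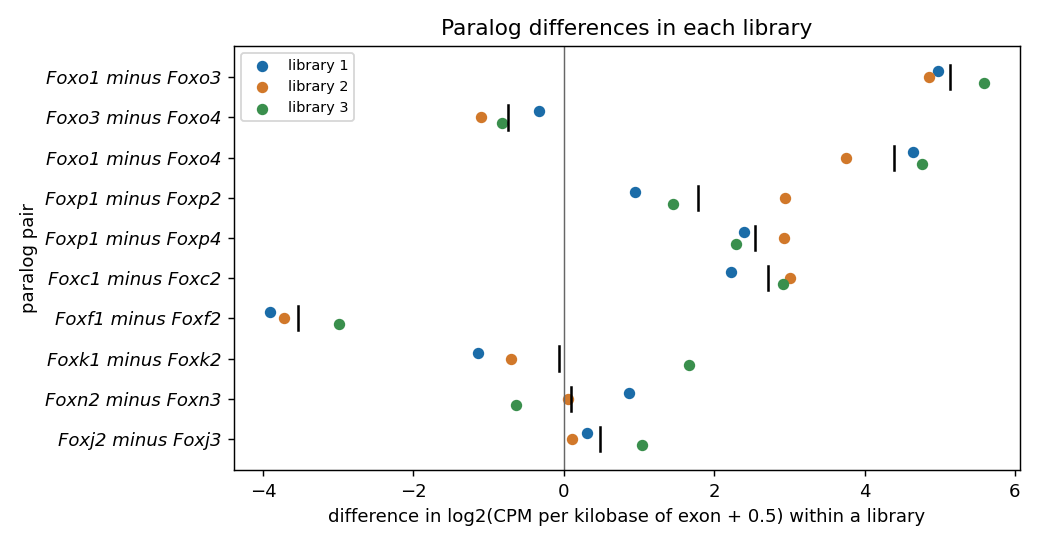
Difference in log2(CPM per kilobase of exon + 0.5) between forkhead paralogs within each library; points are libraries, black bars the mean of 3, and the vertical line 0. The FOXO, FOXP, FOXC and FOXF pairs keep 1 sign in every library, while the Foxk1 and Foxk2 pair and the Foxn2 and Foxn3 pair change sign between libraries.

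In all, 10 of the 12 listed pairs gave a value, 8 had 1 sign in every library and 7 had ranges that did not overlap. The remaining 2 pairs, Foxd1 with Foxd2 and Foxa1 with Foxa2, had 3 counts or fewer for each gene. Another of these pairs, Foxo3 minus Foxo4, was -0.75 ± 0.39 and negative in every library (p = 0.25 by the exact sign-flip permutation). In library 1 each of these genes had 33 counts, so the sign there comes only from their exon lengths, 7571 and 3485 bases.

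Ordered by level per kilobase of exon, Foxo1 came first at 19.2 ± 5.04, followed by Foxf2 at 5.60 ± 1.87 and Foxp1 at 4.91 ± 1.20. Foxj2, Foxn2, Foxn3, Foxc1, Foxk2, Foxj3 and Foxk1 came next, between 3.54 and 2.23 CPM per kilobase by the mean. Foxp2 followed at 1.19 ± 0.81, then Foxo4 at 0.422 ± 0.14 and Foxp4 at 0.417 ± 0.024. Of the 12 steps between neighbours in this order, the step from Foxo1 to Foxf2 was the one whose ranges over libraries did not overlap. At the other 11 steps neighbours did not differ beyond their spread. Foxf2, with a short transcript, stood at rank 2 per kilobase and rank 11 by CPM. With the length of the longest transcript, and also without replicate 1, Foxp1 came before Foxf2. Foxj3 moved from rank 9 to rank 4 with the longest transcript.

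**Figure D4:**
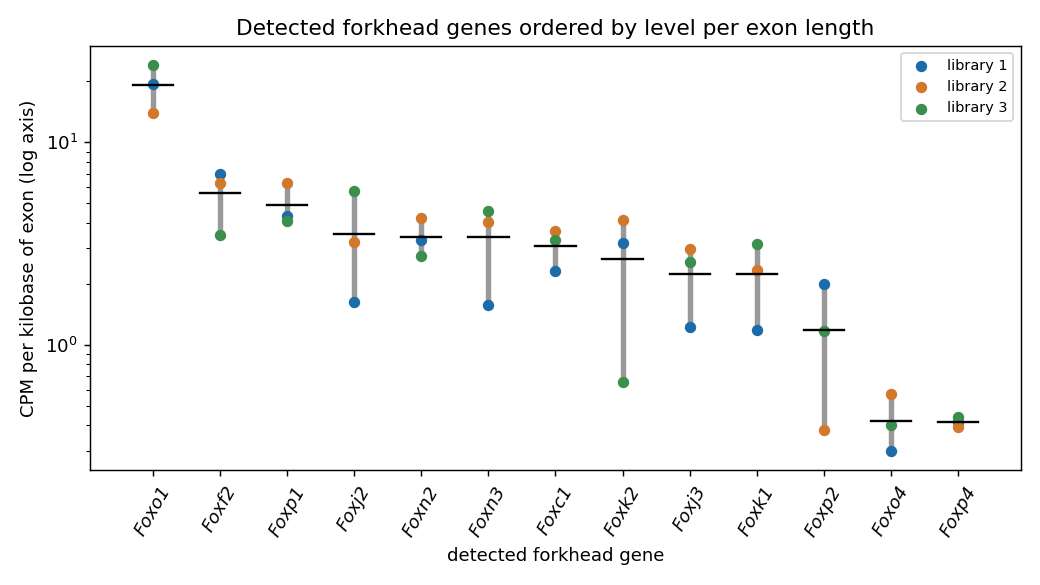
The 13 detected forkhead genes ordered by mean CPM per kilobase of exon (log axis); points are libraries, grey bars the range and black lines the mean. Foxo1, between 14.0 and 24.0, lies above the ranges of the other 12 genes, which overlap from neighbour to neighbour.

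Foxm1, the factor of the mitotic programme (chromosome 6, 128362994 to 128375886), was low. It had 19, 6 and 11 counts, or 0.599, 0.238 and 0.393 CPM. Of 21 mitotic genes that it or the DREAM complex controls, 1 was detected (4.76%, beside 43.7% of protein-coding genes), Cks1b at 194 ± 48.3 CPM. Aurkb, Birc5 and Nek2 had 0 counts in every library and Cdk1 had 1. Top2a had 1, 3 and 321 counts, Mki67 5, 3 and 214, and Ccna2 4, 10 and 164, each highest in library 3, while Bub1b had 143, 1 and 0. Foxm1 was highest in library 1.

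Foxs1 stood apart from the rest of the family. This gene, known from perivascular cells and sensory neurons (chromosome 2, 152931898 to 152933208), had 256 counts in library 1 and 0 in the other 2, or 8.06, 0 and 0 CPM. Genes at 1 CPM or more in library 1 with 0 counts in the others numbered 164, or 0.603% of the table, and 1 forkhead gene, Foxs1, was among them. The same pattern for library 2 held 0.375% of the table and for library 3 0.397%, with 0 forkhead genes in each. The summed level of mural cell markers was 129, 280 and 200 CPM, lowest in library 1, mostly through Pdgfrb at 110, 187 and 174 CPM. Of these markers 2 of 10 were detected (Pdgfrb and Abcc9), and Rgs5 and Higd1b had 0 counts. Endothelial markers summed to 294, 403 and 289 CPM, mostly through Tek at 282, 397 and 286 CPM. Flt1, the other endothelial marker detected, was highest in library 1, at 11.3, 2.42 and 2.14 CPM. Flt4 was highest in library 2, with 3, 84 and 2 counts. The sums thus follow a few genes and do not show how the other markers of either cell type varied. The part of these cells in the Foxs1 counts was not tested.

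Each library was also set against the other 2 over all genes with edgeR's quasi-likelihood test. Of 17 forkhead genes tested 0 were called in each library at an adjusted p under 0.05, beside 0.0% of all 13289 genes. At an unadjusted p under 0.05 there were 1, 0 and 0 of the 17, beside 3.85%, 4.96% and 5.07% of all genes, the one being Foxs1 in library 1 (edgeR quasi-likelihood test, adjusted p = 0.994). DESeq2's Wald test also called 0 forkhead genes, beside 0.933%, 1.57% and 1.68% of all genes. At an unadjusted p under 0.05 the Wald test had 2 of 17 (11.8%) in each library, beside 7.86%, 8.74% and 9.81% of all genes. Foxs1 was among those forkhead genes in each library, since its high library 1 enters all 3 contrasts, so the 3 shares are not independent. Among the 13 detected genes, the highest library was at least 4 times the lowest in Foxk2 (6.36) and Foxp2 (5.27). That is 2 of 13, beside 14.7% of all detected genes. The median ratio was 2.02 in the 13 genes and 1.93 in all detected genes.

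Factors of other organs were at or near 0. Genes with 0 counts in every library included Foxb2, the kidney stroma factor Foxd1, Foxd2, the thyroid factor Foxe1, Foxi3 and Foxr1. The liver and endoderm factors Foxa1, Foxa2 and Foxa3 had 2, 1 and 2 counts. Of the others, the lens factor Foxe3 and the neural crest factor Foxd3 had 1 count each, the thymus epithelium factor Foxn1 2 and the nodal signal partner Foxh1 2. Foxb1 and Foxr2 had 1 count, Foxi1 and Foxi2 2, Foxd4 and the retinal factor Foxn4 3, and Foxl1 4. Foxj1, the factor of motile cilia, had 5, 0 and 0 counts. Of 11 motile cilium genes 2 were detected (18.2%, beside 43.7% of protein-coding genes). These were Rfx2 at 38.0 ± 48.5 CPM, highest in library 2, and Rfx3 at 14.2 ± 9.75, while Tekt1 had 0 counts. Of the SMAD genes that partner Foxh1 and FOXO proteins, 5 of 5 were detected, beside the same 43.7%. Smad4 led them at 164 ± 13.4 CPM.

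**Figure D5:**
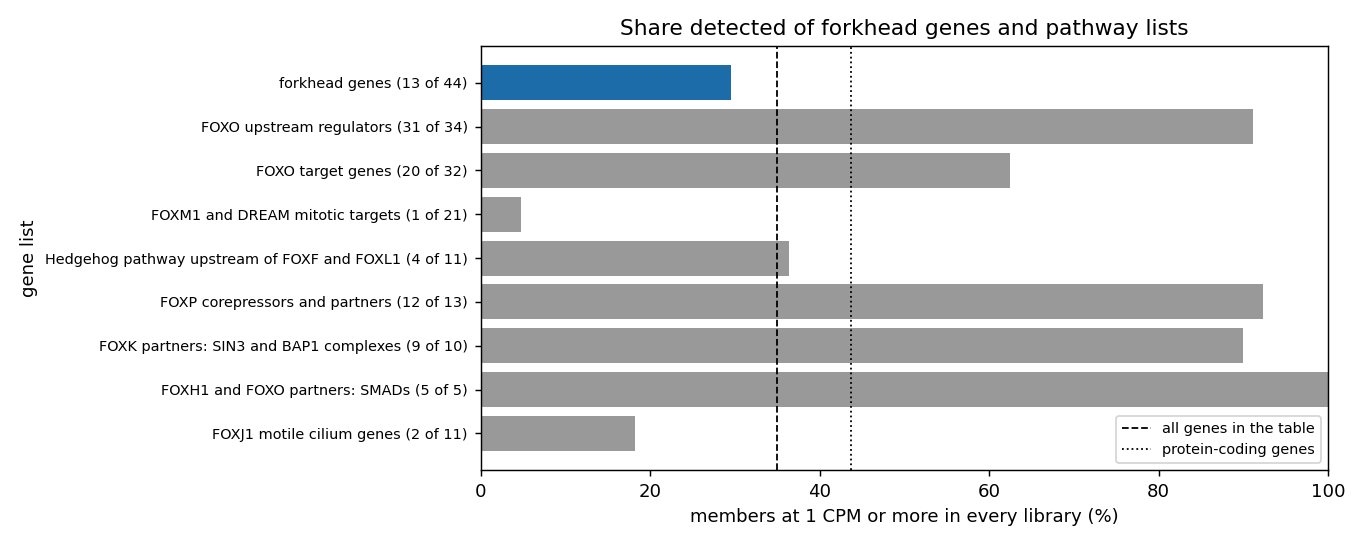
Share of genes at 1 CPM or more in every library, for the forkhead family (blue) and for lists of genes that act with it (grey), with the dashed line at 35.0% of all genes and the dotted line at 43.7% of protein-coding genes. The forkhead family lies at 29.5%, the FOXO upstream list at 91.2%, the FOXO target list at 62.5% and the mitotic list at 4.76%.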

How the data were processed

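RNA was amplified as cDNA with a SMARTer low-input kit, per the labels' protocols. The authors deposited 1 table of whole-number read counts, with NCBI gene IDs as rows, a column for each sample and no normalization. Tools named in the submitters' processing notes are CASAVA 1.8.2 and STAR 2.3.0, with mm10 as the build. How reads were counted, filtered and annotated, and whether strand was used, is not given in the sources used here. Without strand, reads of a gene and an overlapping antisense gene cannot be told apart.

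Symbols and loci came from RefSeq (GRCm38.p6), in which 1904 IDs had no match, and exon lengths from GENCODE M21. CPM used TMM library sizes (edgeR 4.0.16, R 4.3.3), and paralogs were compared as log2(CPM per kilobase + 0.5). The quasi-likelihood test took genes with 10 counts or more in at least 1 library and treated the lone library as being as variable as the rest. It was checked on simulated counts with large changes in well-covered genes. There it called most changed genes, but also more unchanged genes than its threshold allows. DESeq2 1.42.0, scipy 1.17.1, numpy 2.4.6, pandas 2.3.3 and Python 3.11.15 were also used. Alternatives were other thresholds, size factors, pseudocounts and lengths, no count filter, the DESeq2 test, and leaving out each library; the longest-transcript length was added after the data were seen.

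The members, lists and pairs were chosen with earlier results of these data known. All members could be named, and of each list the 4 genes with the highest mean, those at 0 counts and those needed for a count of 5 or fewer, with neighbours in the clusters. Other listed genes named (the AKT genes, Gli1, Ptch1, Shh, Ihh, Cd3d, Top2a, Mki67, Ccna2, Bub1b and Cdk1) were chosen after their values were seen. Counts of Cks1b and the 14-3-3 genes may include reads of processed pseudogenes. The values of 1 member and some helix sequences are not reported here.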

Additional observations from a re-analysis of the deposited data

How the results depend on the processing

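The number of detected forkhead genes was 13 at 0.5 CPM, with DESeq2 size factors, with library totals and without each replicate (13 to 13). It was 10 at 5 CPM, where Foxk2, Foxo4 and Foxp4 were lost, and 9 at 1 CPM per kilobase, where Foxp2 was lost as well. Of all genes in the table, 36.6% were detected at 0.5 CPM, 28.3% at 5 CPM and 28.6% at 1 CPM per kilobase. Foxk1 minus Foxk2 turned to 0.49 by CPM alone, and ranged from -0.92 to 0.48 with 1 replicate left out. Foxn2 minus Foxn3 turned to -0.51 by CPM alone, and ranged from -0.30 to 0.46. Foxj2 minus Foxj3 turned to -0.45 by CPM and -0.53 with the longest transcript. The other 7 pairs kept their sign in every alternative run, but their sizes depend on the pseudocount and on length. With a pseudocount of 0.1 Foxo3 minus Foxo4 moved from -0.75 to -1.89, Foxc1 minus Foxc2 from 2.72 to 4.56 and Foxf1 minus Foxf2 from -3.54 to -5.70. By CPM alone Foxo1 minus Foxo3 moved from 5.14 to 7.74, Foxp1 minus Foxp4 from 2.54 to 4.71, Foxc1 minus Foxc2 to 4.93 and Foxo3 minus Foxo4 to -1.35. With a pseudocount of 1, Foxo3 minus Foxo4 was -0.44. The count of neighbours in the order whose ranges did not overlap was 1, and 3 by CPM or with the longest transcript, and 2 to 3 with 1 replicate left out, where ranges rest on fewer libraries. Without replicate 1 the mean of Foxp2 was 12.7 CPM in place of 19.4. Each alternative also called 0 forkhead genes, which, with 1 library in an arm, says nothing about stability. No paired analysis was possible because the labels give 1 group. Depth limits statements on genes under 3 counts.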

Other observations

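Other genes whose symbols begin with Fox do not encode forkhead factors. Foxred1, an assembly factor gene of mitochondrial complex I, had 22, 110 and 758 counts, or 0.693, 4.36 and 27.1 CPM, highest in library 3. Foxred2 had 125, 14 and 7 counts, highest in library 1. The noncoding genes Foxd2os and Foxl2os had 3 and 0 counts in all, beside 0 for Foxd2 and 34 for Foxl2. These values were not tested.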
